A study of Danio rerio with 2 samples.

Results

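Hemoglobin, the oxygen carrier of red blood cells, is a tetramer of alpha and beta globin chains, and its genes make up most of the messenger RNA of a maturing erythroid cell. Zebrafish carry adult and embryonic alpha and beta globin genes side by side, and the embryonic genes serve the primitive red cells of the embryo before the adult genes take over. In the adult fish red cells are made in the kidney marrow and keep their nucleus, so that they are captured like other blood cells. Here 7 gene symbols of the alpha and beta globins were followed. They were picked by name from the feature table with earlier results of these data known, and 7 other hemoglobin features, all embryonic-named, were not members. The 7 members are hbaa1 and hbaa2 (adult-named alpha globins), hbba1 and hbba2 (adult-named beta globins), si:ch211-5k11.8 (an adult alpha globin, with hbaa1.2 as a synonym in RefSeq), hbae1.3 (embryonic-named alpha) and hbbe1.3 (embryonic-named beta). hbba1 and hbae1.3 each stand for 2 gene ids, whose counts were added up, so that the 7 symbols cover 9 of the 25109 features. Hemoglobin as a whole was the sum of the 16 features that the name pattern of the study's methods picks out, and the 7 members held 99.97% of its UMIs in the sorted library and 99.99% in the WKM library.

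The data were droplet-based single-cell RNA-seq counts of 2 libraries, both from the same 2 male zebrafish aged 6 months that carried Tg(lysC:CFPNTR) and Tg(BACmmp9:Citrine-CAAX). Before sorting, the marrow cells of both libraries were labelled with lipid-anchored index sequences at 2 µM (MULTI-seq). The sorted library pooled cells of both fish gated on the lysC reporter, a label of neutrophils, and on no, intermediate or high Citrine from the mmp9 BAC reporter. The whole kidney marrow (WKM) library pooled live marrow cells of both fish, gated against debris but on no reporter, and its label adds PBMCs. With 1 library in each group and no map of barcodes to fish used here, no test was run, barcodes are not replicates, and all intervals are 95% intervals that cover counting error only.

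The sorted library held 17846 barcodes with 58772890 UMIs and the WKM library 10688 barcodes with 45939863 UMIs. Barcodes with under 10% mitochondrial counts that Scrublet did not call doublets were kept, which left 15513 sorted barcodes (median 2120 UMIs) and 10350 WKM barcodes (median 2738 UMIs). Of these, 8860 sorted and 3305 WKM barcodes were lyz-rich, which means that lyz, the lysozyme gene of neutrophils, took at least 2% of the UMIs outside hemoglobin. The libraries shared 62 barcode sequences.

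The 4 adult-named symbols and si:ch211-5k11.8 made up nearly all hemoglobin of the WKM library. Among its 7456061 hemoglobin UMIs hbaa1 took 40.3%, hbba1 38.9%, hbba2 8.14%, si:ch211-5k11.8 7.42% and hbaa2 5.01%. The embryonic-named features together took 0.218%, of which hbae1.3 took 0.160% and hbbe1.3 0.0427%. hbba1 was the sum of 2106522 UMIs of ENSDARG00000089087 and 796615 UMIs of ENSDARG00000097238. hbae1.3 was the sum of 8506 UMIs of ENSDARG00000088330, which the table of gene names lists as hbae1.2, and 3446 UMIs of ENSDARG00000089124. Each UMI stands for 1 tagged transcript end and was not scaled to transcript length. Globin genes of 1 type are near copies of each other, so reads that fit several copies may have been lost or assigned unevenly, and the shares of single genes are uncertain to that extent. In RefSeq, on another assembly (GRCz12tu), all 7 symbols are on chromosome 3, where hbaa2 and hbba2 are neighbours at one end of the row and the embryonic-named genes lie at the other end.

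WKM barcodes were grouped by the share of their UMIs that was hemoglobin. There were 7562 barcodes under 10%, 565 at 10 to 20%, 749 at 20 to 50% and 1474 over 50%. The hemoglobin shares of single barcodes reached 9.98% just below the first limit, lay at 19.97% and 20.03% on the sides of the second and reached 49.96% just below the third, so the limits cut through a continuous range. The bands held different cells. Erythroid-marker barcodes, with UMIs of at least 3 of 27 listed erythroid genes other than globins and at least 1% of the UMIs outside hemoglobin on that list, numbered 49, 80, 636 and 1443 from the lowest band to the highest. Lyz-rich barcodes numbered 3185, 70, 41 and 9, and the barcodes that were neither numbered 4328, 415, 72 and 22.

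Over all barcodes of a band, the adult-named symbols took 92.7% of hemoglobin UMIs under 10%, 92.1% at 10 to 20%, 92.2% at 20 to 50% and 92.4% over 50%. The embryonic-named share was 0.189% under 10% (interval 0.180 to 0.199%), 0.153% at 10 to 20% (0.136 to 0.172%), 0.319% at 20 to 50% (0.308 to 0.329%) and 0.203% over 50% (0.199 to 0.207%). With each barcode of at least 100 hemoglobin UMIs weighted equally it was 0.198%, 0.159%, 0.191% and 0.171%, and the higher value at 20 to 50% was no longer seen. This limit kept 3074 of 7562 barcodes under 10% and 406 of 565 at 10 to 20%. Adult-named globins thus held nearly the same share in every band, and the embryonic-named ones stayed under 1% of hemoglobin in each. The share of hbba1 differed more, with 39.6%, 32.6%, 35.9% and 39.7% from the lowest band to the highest. The shares of hbaa1 were 41.1%, 43.2%, 39.8% and 40.1%, and those of hbba2 were 7.35%, 10.5%, 9.98% and 7.80%. hbaa2 had 4.64%, 5.93%, 6.52% and 4.72%, and si:ch211-5k11.8 had 7.13%, 7.71%, 7.48% and 7.45%. With each barcode of at least 100 hemoglobin UMIs weighted equally, hbaa2 had 4.48%, 4.33%, 4.25% and 4.08%, and hbba1 had 40.2%, 38.9%, 40.1% and 39.99% from the lowest band to the highest, so the differences between bands were smaller than in the pooled shares.

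Within the erythroid-marker barcodes the order across bands was clearer than over all barcodes. hbba1 took 23.3% of hemoglobin UMIs under 10% (22.8 to 23.8%), 25.1% at 10 to 20% (24.8 to 25.4%), 35.3% at 20 to 50% (35.2 to 35.4%) and 39.7% over 50% (39.67 to 39.75%). None of these intervals overlapped. The barcodes behind them did overlap, with a lowest, median and highest hbba1 share of 11.1%, 26.3% and 42.2% under 10%, 4.88%, 27.3% and 46.9% at 10 to 20%, 15.6%, 41.0% and 54.8% at 20 to 50%, and 23.6%, 40.1% and 52.5% over 50%, counting barcodes with at least 100 hemoglobin UMIs. The medians of the bands at 20 to 50% and over 50% had the other order. Both gene ids of hbba1 had the order of the pooled shares. ENSDARG00000089087 took 16.8%, 18.0%, 25.4% and 28.8% from the lowest band to the highest, and ENSDARG00000097238 took 6.52%, 7.08%, 9.93% and 10.9%. hbba2 and hbaa2 had their highest shares at 10 to 20% and their lowest over 50%, and si:ch211-5k11.8 was lower in each higher band. hbba2 took 12.4%, 14.2%, 10.4% and 7.80%, hbaa2 took 7.92%, 8.05%, 6.81% and 4.72%, hbaa1 took 46.9%, 44.3%, 39.5% and 40.1%, and si:ch211-5k11.8 took 9.35%, 8.10%, 7.66% and 7.45%. Single barcodes ranged widely in each band, and these ranges include the counting error of barcodes with as few as 100 hemoglobin UMIs. The lowest, median and highest share of hbba2 was 3.40%, 11.05% and 24.2% under 10%, 3.15%, 12.7% and 24.9% at 10 to 20%, 0.338%, 5.79% and 19.6% at 20 to 50%, and 0.702%, 7.39% and 14.0% over 50%. For hbaa2 it was 1.60%, 6.82% and 18.8% under 10%, 2.07%, 7.12% and 16.2% at 10 to 20%, 0%, 3.601% and 15.6% at 20 to 50%, and 0%, 4.26% and 9.92% over 50%. The median barcode at 20 to 50% thus lay below that over 50% for both genes, while the pooled share lay above it.

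**Figure D1:**
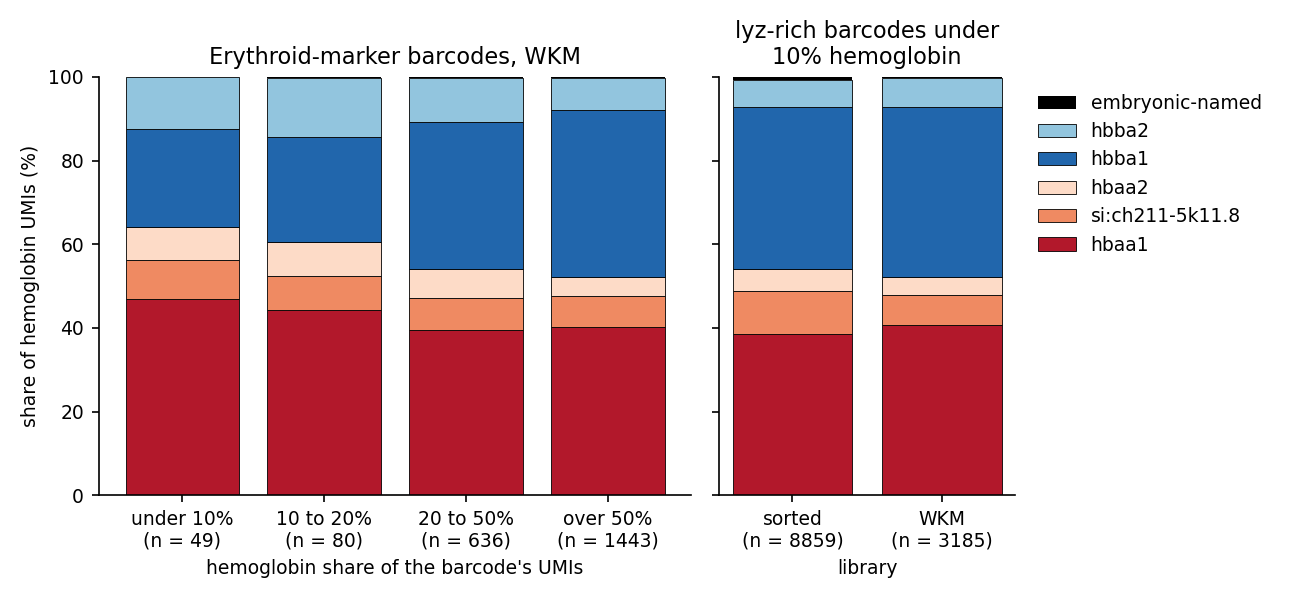
Stacked bars give the share of each globin among the hemoglobin UMIs (%) in erythroid-marker WKM barcodes of the 4 hemoglobin bands (left) and in lyz-rich barcodes under 10% hemoglobin of the sorted and WKM libraries (right), with the number of barcodes under each bar. hbba1 is 23.3% in the lowest erythroid band and 39.7% in the highest, and the embryonic-named share is at most 0.678% in any bar.

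The same barcodes held more alpha than beta globin at low hemoglobin. The ratio of alpha to beta UMIs was 1.80 under 10% (1.75 to 1.85), 1.54 at 10 to 20% (1.52 to 1.56), 1.19 at 20 to 50% (1.18 to 1.19) and 1.103 over 50% (1.101 to 1.105). Per barcode the median ratio was 1.71, 1.49, 1.14 and 1.103, and the highest was 4.34, 3.09, 2.49 and 2.65. All bands held barcodes with a ratio under 1, the lowest being 0.926, 0.918, 0.642 and 0.734. These extremes include the counting error of single barcodes. The excess of alpha UMIs at low hemoglobin was spread over all 3 adult alpha genes, and among beta genes the low share was that of hbba1 and not that of hbba2.

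WKM barcodes without erythroid markers also carried hemoglobin, as described further down, and whether this was free RNA was not tested. When 97 hemoglobin UMIs (the median of lyz-rich barcodes) with the composition of lyz-rich barcodes were taken off each erythroid-marker barcode, hbba1 came to 19.0% under 10%, 23.8% at 10 to 20%, 35.0% at 20 to 50% and 39.7% over 50%, and the ratio of alpha to beta to 2.05, 1.58, 1.19 and 1.103. The hemoglobin taken off held 40.5% hbba1 and an alpha to beta ratio of 1.101. The step could therefore only lower hbba1 and raise the ratio, most where a barcode held few hemoglobin UMIs. A wider difference between bands was thus fixed in advance and says nothing about the order of the bands. The step was chosen after the values had been seen.

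The 20 to 50% band held unlike erythroid-marker barcodes. Of its 636 barcodes, 245 had at least 500 features, the minimum the study's methods set, with a median of 9119 UMIs, and 391 had fewer, with a median of 575 UMIs. hbaa2 and hbba2 together took 18.3% of hemoglobin (18.3 to 18.4%) in the barcodes with at least 500 features, against 7.16% (7.01 to 7.32%) in those with fewer. hbba1 took 34.4% of hemoglobin UMIs in the barcodes with at least 500 features, against 43.3% in those with fewer. The medians per barcode, 18.2% against 6.48% for hbaa2 and hbba2, gave the same order, while the ranges overlapped at 1.68 to 35.2% against 1.72 to 22.3%. Over 50%, hbaa2 and hbba2 took 13.4% in 558 barcodes with at least 500 features, against 11.3% in 885 with fewer.

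Among barcodes with at least 500 features alone, the pooled shares kept the order across bands, while the median barcode had 27.1%, 26.2%, 34.2% and 39.5% hbba1 from the lowest band to the highest. hbba1 took 23.2% under 10% (46 barcodes), 24.9% at 10 to 20% (69 barcodes), 34.4% at 20 to 50% (245 barcodes) and 39.4% over 50% (558 barcodes). hbaa2 and hbba2 together took 20.4%, 22.5%, 18.3% and 13.4%, and the ratio of alpha to beta was 1.81, 1.54, 1.20 and 1.101. Their median UMIs outside hemoglobin were 5125, 8566, 5732 and 2069, so the bands also differed in depth, whose part in the composition was not tested. Barcodes with under 500 features did not have this order. From the lowest band to the highest, hbba1 took 37.8% (3 barcodes), 39.2% (11 barcodes), 43.3% (391 barcodes) and 40.1% (885 barcodes) in them. There hbaa2 and hbba2 together took 12.4%, 9.77%, 7.16% and 11.3%, and the ratio of alpha to beta was 1.08, 1.22, 1.09 and 1.11.

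**Figure D2:**
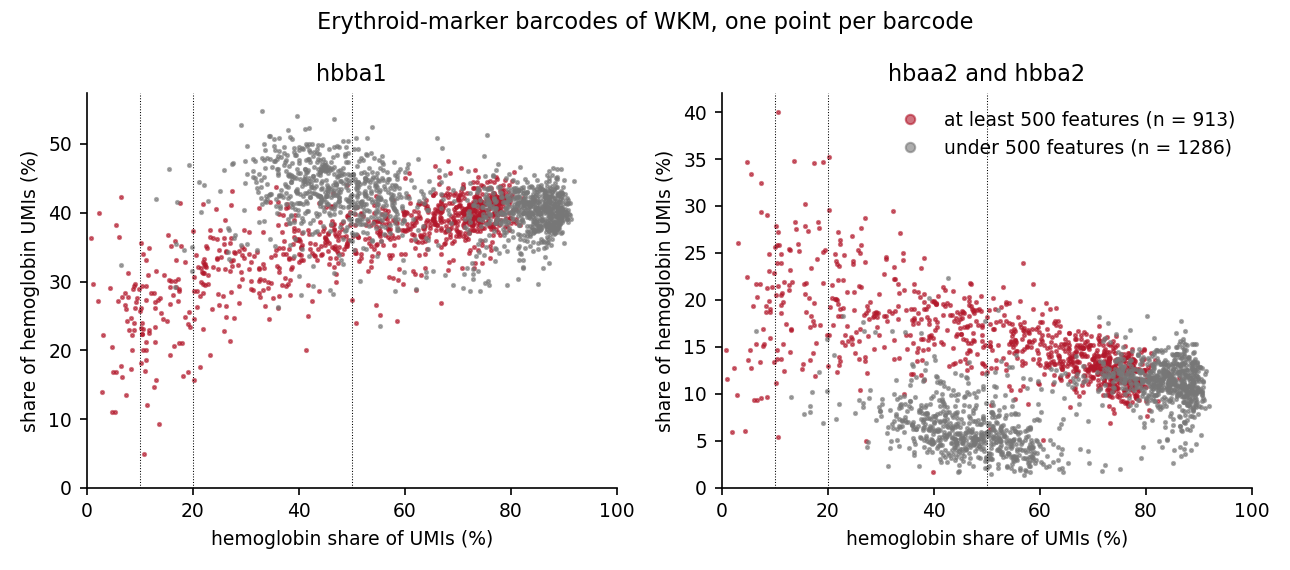
Each point is 1 erythroid-marker WKM barcode with at least 100 hemoglobin UMIs, with its hemoglobin share of UMIs (%) on the x axis and the share of hbba1 (left) or of hbaa2 and hbba2 together (right) among its hemoglobin UMIs (%) on the y axis. Red points have at least 500 features and grey points fewer, dotted lines mark the band limits, and at 20 to 50% the grey points have a median of 6.48% in hbaa2 and hbba2, below the 18.2% of the red ones.

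hbaa2 and hbba2 moved together from barcode to barcode. Over 2199 erythroid-marker barcodes with at least 100 hemoglobin UMIs the shares of hbaa2 and hbba2 had a Pearson r of 0.83 (Spearman 0.82), although one encodes an alpha and the other a beta chain. hbba1 and hbba2, both beta globins, had r = -0.69, and hbaa1 and hbaa2, both alpha globins, had r = -0.33. hbaa1 and hbba1 had r = -0.39. The share of si:ch211-5k11.8 was near 0 in its correlation with hbaa1 (r = 0.02) and hbba2 (r = 0.01). Its r was 0.11 with hbaa2 and -0.33 with hbba1. These are descriptions without a test, since the barcodes come from 1 library and the shares of a barcode add up to 100%, which pushes the larger genes towards negative values.

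The embryonic-named globins were unevenly spread over barcodes. Of 2208 erythroid-marker barcodes 1177 (53.3%) held an embryonic-named UMI, the 10 with most held 15.6% of the 14054 such UMIs, and 87 barcodes exceeded 1% of their hemoglobin. The highest held 612 embryonic-named among 5017 hemoglobin UMIs (12.2%), of which 402 were hbae1.3 and 160 hbbe1.3. By number of embryonic-named UMIs the next held 223 of 3442 (6.48%) and 215 of 7404 (2.90%). Another with fewer, 164 of 2127, had a larger share than these (7.71%). No such barcode was mainly embryonic in its hemoglobin. In erythroid-marker barcodes the embryonic-named share was 0.146% under 10%, 0.177% at 10 to 20%, 0.328% at 20 to 50% and 0.2003% over 50%. Without the 10 barcodes it was 0.146%, 0.177%, 0.208% and 0.183%, so that the higher value at 20 to 50% rested mainly on 4 of them.

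hbae1.3 exceeded hbbe1.3 in each band. hbae1.3 took 0.0669% of hemoglobin UMIs under 10%, 0.104% at 10 to 20%, 0.233% at 20 to 50% and 0.149% over 50% in erythroid-marker barcodes, and hbbe1.3 took 0.0209%, 0.0412%, 0.0638% and 0.0414%. Among all erythroid-marker barcodes there were 3.59 UMIs of hbae1.3 for each of hbbe1.3. Single barcodes departed far from this ratio. In 179 barcodes with at least 20 embryonic-named UMIs, hbae1.3 made up a median of 88.3% of the sum of both genes, with a range of 2.63 to 100%, and 28 of them held no UMI of hbbe1.3 while each held hbae1.3.

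Over all bands together, embryonic-named UMIs were more frequent in erythroid-marker barcodes with RNA of the cell cycle. In 684 cycling barcodes, with at least 0.5% of the UMIs outside hemoglobin on a list of 17 cell cycle genes, the embryonic-named share was 0.314% (0.308 to 0.320%), against 0.128% (0.124 to 0.132%) in 1524 barcodes that were not cycling. hbae1.3 took 0.230% of hemoglobin in cycling barcodes, against 0.0931% in the others, and hbbe1.3 took 0.0656% against 0.0245%. The groups differed in depth, with a median of 6790 UMIs in cycling barcodes and 3083 UMIs in the others. After each barcode had been thinned to 500 hemoglobin UMIs, 46.0% of 641 cycling barcodes were expected to hold an embryonic-named UMI, against 25.2% of 915 others. Without thinning 81.7% and 55.1% of the same barcodes did, in that order, and 43 cycling and 609 other barcodes were left out as too shallow. At least 500 features were held by 610 cycling and 308 other barcodes. Among these alone the unthinned embryonic-named share was 0.312% in cycling barcodes and 0.215% in the others, a smaller difference. Leaving out the 10 barcodes richest in embryonic-named UMIs gave 0.256% and 0.193%, in that order.

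Within bands and among barcodes with at least 500 features cycling barcodes again had the higher pooled share. At 20 to 50% the embryonic-named share was 0.448% in 124 cycling barcodes and 0.253% in 121 others, and over 50% it was 0.290% in 470 cycling barcodes and 0.193% in 88 others. At 10 to 20% it was 0.279% in 12 cycling barcodes and 0.157% in 57 others. These 12 barcodes held 44 embryonic-named UMIs in all, and the highest had 3.68% of its hemoglobin, so 1 barcode may carry this difference. The median barcode of this band had 0.216% in cycling barcodes and 0.0506% in the others. None of the 10 barcodes left out below was in this band. Without the 10 barcodes richest in embryonic-named UMIs the values at 20 to 50% were 0.227% in cycling barcodes and 0.203% in the others. The median barcode had 0.0753% and 0.0466% in the same order, and the adult-named pair hbaa2 and hbba2 took 18.1% in cycling barcodes and 18.6% in the others of that band. Over 50%, leaving out the same 10 barcodes gave 0.261% in cycling barcodes and 0.193% in the others. The median barcode there had 0.0948% and 0.0847%, in that order. An embryonic-named UMI was found in 398 of the 470 cycling barcodes and in 78 of the 88 others, which was not the order of the pooled share.

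**Figure D3:**
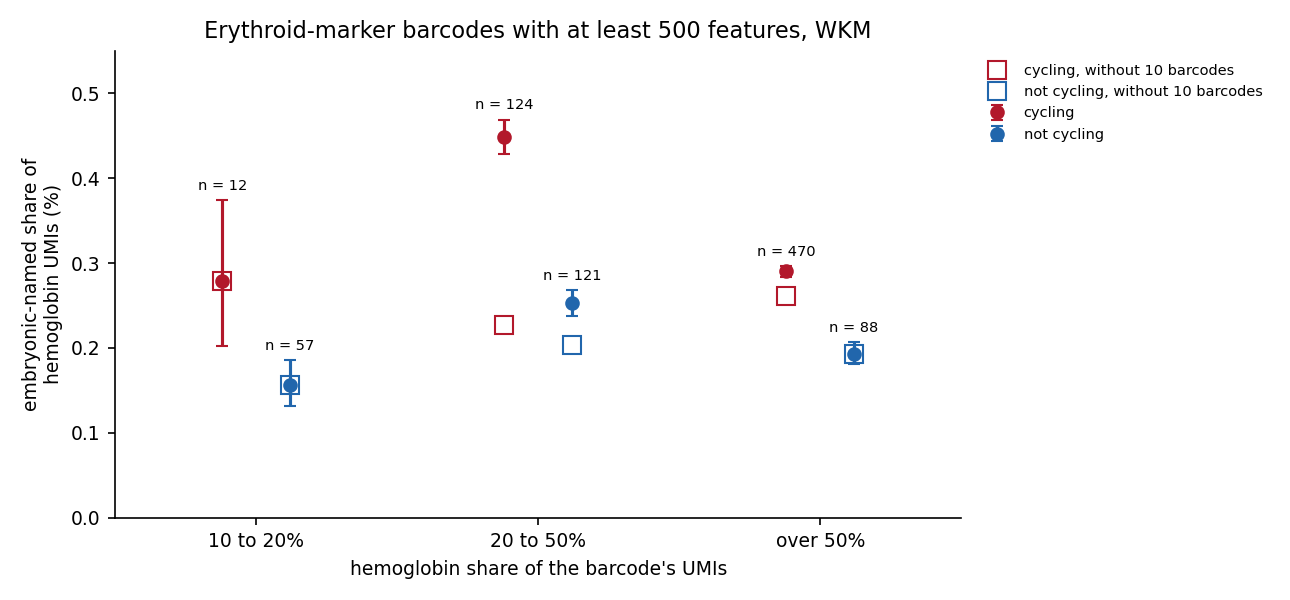
The embryonic-named share of hemoglobin UMIs (%) is plotted for cycling (red) and not cycling (blue) erythroid-marker WKM barcodes with at least 500 features in 3 hemoglobin bands, where filled points with bars are pooled shares with 95% counting intervals and open squares leave out the 10 barcodes with most embryonic-named UMIs. In pooled share cycling barcodes lie higher in each band, at 0.448% against 0.253% at 20 to 50%, where the squares lie at 0.227% and 0.203%. At 10 to 20% the 12 cycling barcodes held 44 embryonic-named UMIs in all, with 3.68% in the highest barcode.

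The remaining hemoglobin features were rare. In WKM hbae1.1 had 506 UMIs, hbae5 422, hbbe1.1 90, hbbe2 57, hbbe3 9 and hbbe1.2 3, and hbae3 had 0, where 3 UMIs would correspond to 0.0683 CPM. In erythroid-marker barcodes hbae1.1 had 213 UMIs at 20 to 50% and 196 over 50%, and 43 of them came from 1 barcode. hbae5, which lies on chromosome 12 in RefSeq, had 36.0 CPM of the UMIs outside hemoglobin at 20 to 50% (27.4 to 46.5) and 142 over 50% (125 to 160). This order is not independent of the bands, which are set by hemoglobin against other UMIs. Among the hemoglobin UMIs of the same barcodes hbae5 took 0.006146% at 20 to 50% (0.00468 to 0.00793%). Over 50% it took 0.005001% (0.00442 to 0.00564%), so its share of hemoglobin was not higher there and the intervals overlapped.

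Genes outside hemoglobin described the bands further. CPM of the UMIs outside hemoglobin were compared between all barcodes over 50% and all at 20 to 50% for 7209 genes with at least 20 UMIs, of which 11.4% were at least 2-fold higher and 11.5% at least 2-fold lower over 50%. Scaling by the median of ratios over genes gave 563 higher and 1025 lower genes, against 819 higher and 827 lower. Of 26 tested erythroid genes 15 were at least 2-fold higher and 0 lower, with a median log2 ratio of 1.23 beside 0.17 for all genes. The bands differ in their share of erythroid-marker barcodes, so this list is not independent of them. cahz, a carbonic anhydrase of red cells, had the largest ratio (12550 CPM over 50% and 3319 CPM at 20 to 50%, log2 ratio 1.92, 1.88 to 1.96), followed by alas2, the first enzyme of erythroid heme synthesis (4701 CPM over 50% and 1293 CPM at 20 to 50%, log2 ratio 1.86). cpox, a later enzyme of the same pathway, had the smallest (365 CPM over 50% and 407 CPM at 20 to 50%, log2 ratio -0.16). hemgn, slc4a1a (the anion exchanger band 3), tspo and prdx2, with cahz the list's genes with most UMIs, had log2 ratios of 1.47, 1.64, 1.49 and 0.60. Of 18 tested features of the cell cycle list 7 were at least 2-fold higher and 0 lower. They ran from ccnb1, a mitotic cyclin (log2 ratio 1.49, 1.14 to 1.85), to mcm3, a subunit of the replicative helicase (log2 ratio -0.95, -1.27 to -0.63).

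Clusters of WKM barcodes, built without the hemoglobin features, placed the globins among cell types. Of 24 clusters 4 were erythroid-like by markers other than globins, with a pooled hemoglobin share of 83.1% in cluster 13, 62.6% in cluster 6, 58.8% in cluster 15 and 50.4% in cluster 8. hbaa1 reached 340686 CPM and hbba1 332972 CPM in cluster 13. Cluster 8, with 639 barcodes of a median of 571 UMIs, had the lowest share of hbaa2 (1.98%) and hbba2 (3.74%) of all 24 clusters and the highest of hbba1 (42.9%). The leading genes of cluster 6 included genes of mitosis (aspm, cenpf and ube2c) and those of cluster 15 erythroid genes (epb41b, slc4a1a, hmbsb and hemgn), and hbaa2 and hbba2 took 14.2% and 14.6% of hemoglobin in clusters 6 and 15, in that order. The cell cycle list took 0.673% of the UMIs outside hemoglobin in cluster 6 and 0.726% in cluster 15.

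Cluster 12 differed from all others in composition. Its 309 barcodes were led by mycb, blf, tal1 and drl, of which tal1 encodes a regulator of early blood and erythroid cells, and it stayed unnamed under the fixed rule because HSPC (hematopoietic stem and progenitor cell) markers came too close to the erythroid ones. Hemoglobin took 8.43% of its UMIs (8.40 to 8.46%), with a median of 332 UMIs per barcode. hbba1 had 28.9% of hemoglobin there, the lowest of the 24 clusters, hbba2 had 12.5% and hbaa2 7.52%, both the highest, and the ratio of alpha to beta was 1.41, also the highest. The next highest ratio, 1.26, was that of cluster 23 with 37 barcodes. It was pooled over 10509 hemoglobin UMIs at a median of 90 per barcode, so it need not be that of the typical barcode. The embryonic-named share of hemoglobin was highest in clusters 14 (0.501% of 10980 UMIs) and 23 (0.476% of 10509 UMIs) and in the HSPC-like cluster 5 (0.471% of 72871 UMIs). Clusters 14 and 23 held only 65 and 37 barcodes, with medians of 83 and 90 hemoglobin UMIs. Few barcodes with many hemoglobin UMIs thus weighed most in their pooled shares. Cluster 5 had 544 barcodes with a median of 92.5 hemoglobin UMIs, and hemoglobin reached 10.8% of UMIs at its 95% point. Its pooled share also need not be that of the typical barcode. The embryonic-named share was 0.0808 to 0.307% in the 4 erythroid-like clusters, with a median of 0.198% over all 24. These clusters were not chosen on globins, yet no test was run between them.

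**Figure D4:**
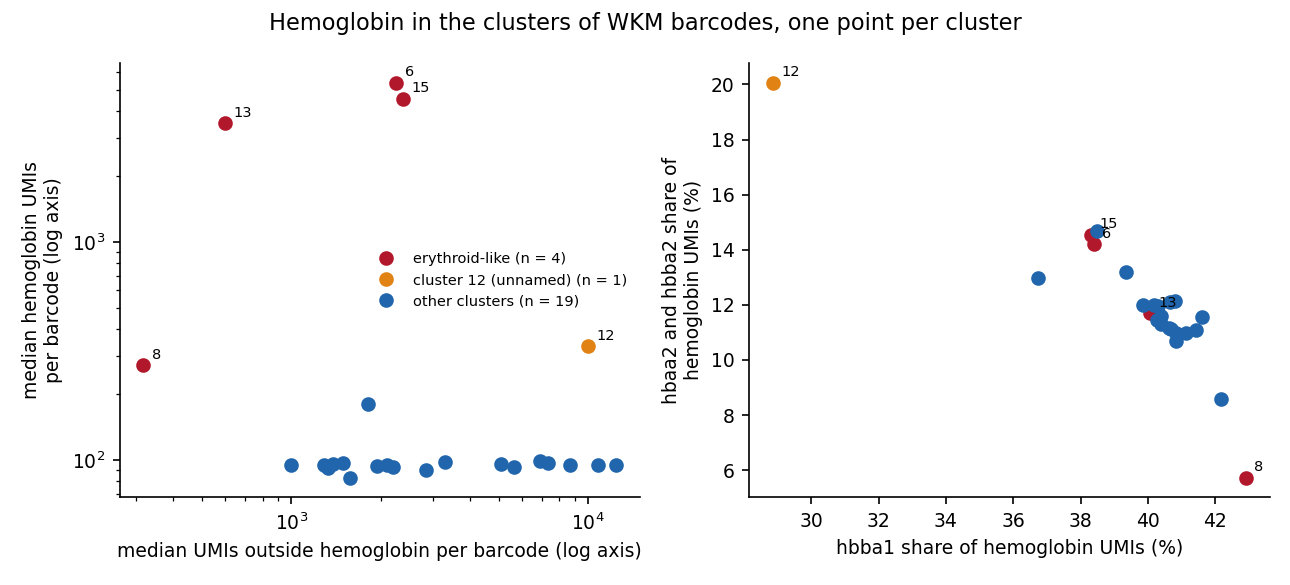
Each point is 1 of 24 clusters of WKM barcodes. On the left the median hemoglobin UMIs per barcode are plotted against the median UMIs outside hemoglobin (both log axes), and on the right the share of hbaa2 and hbba2 is plotted against that of hbba1 (% of hemoglobin UMIs), with erythroid-like clusters in red, the unnamed cluster 12 in orange and the other 19 in blue. Of the blue clusters 18 lie between 83 and 99 hemoglobin UMIs per barcode, and cluster 12 stands apart with 28.9% hbba1.

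Across the 24 clusters the genes whose level outside hemoglobin was most like that of summed hemoglobin were si:dkey-16p21.8 (r = 0.99), cahz (r = 0.98), si:ch211-103n10.5 (r = 0.98), hemgn, a nuclear protein of erythroid cells (r = 0.98), and tmod4, a tropomodulin that caps actin filaments (r = 0.97). Likeness was the Pearson correlation over log2(CPM + 10) among 9002 genes with at least 100 UMIs, and the clusters share 1 library.

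Barcodes that were not erythroid also carried hemoglobin, and its median number of UMIs was nearly constant across most of their clusters. In 18 of the other 19 clusters the median was 83 to 99 hemoglobin UMIs per barcode, although the median of the UMIs outside hemoglobin ranged over 1000 to 12450. The exception was cluster 1, neutrophil-like with 274 barcodes, at 181. The 3185 lyz-rich WKM barcodes under 10% hemoglobin had a median of 97 (63.0 to 172 at the 5% and 95% points, 2 to 671 in all), and the 4328 barcodes that were neither lyz-rich nor erythroid-marker had a median of 95 (63.4 to 161 at the same points). Lyz-rich WKM barcodes of the higher bands held more, with medians of 125.5 at 10 to 20% (70 barcodes), 2420 at 20 to 50% (41 barcodes) and 2226 over 50% (9 barcodes). The limit of 10% also caps the hemoglobin UMIs of a shallow barcode. No kept WKM barcode was without a hemoglobin UMI. Split into 5 equal bins by depth, lyz-rich WKM barcodes under 10% had medians of 93, 98, 97, 96.5 and 98 hemoglobin UMIs at median depths of 1841, 2615, 3646, 5146 and 8217 UMIs. Their median hemoglobin share accordingly was 4.99%, 3.76%, 2.66%, 1.89% and 1.19% from the shallowest bin to the deepest.

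Sorted neutrophils held far less hemoglobin than lyz-rich barcodes of WKM. Hemoglobin took 0.0131% of the UMIs of 8860 lyz-rich sorted barcodes and 3.22% of those of 3305 lyz-rich WKM barcodes, a log2 ratio of -7.93 (-7.98 to -7.89), or 245-fold lower in the sorted library. A single sorted barcode held 2522 of the 4733 hemoglobin UMIs of this set. Among barcodes under 10% hemoglobin the shares were 0.00614% in 8859 sorted and 2.30% in 3185 WKM barcodes, which was 374-fold lower in the sorted library (359 to 390). All 7 members were lower in sorted lyz-rich barcodes, where 2.46% of 11166 tested genes were at least 2-fold lower and 5.13% at least 2-fold higher, at a median log2 ratio of 0.18. Scaling by the median of ratios moved these counts to 354 lower and 404 higher, against 275 lower and 573 higher. The sort on LysC and the separate libraries, with any free RNA in them, cannot be told apart in this comparison.

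hbaa1 had 54.7 CPM (52.3 to 57.2) in sorted lyz-rich barcodes and 13201 CPM (13142 to 13260) in those of WKM. hbba1 had 50.4 CPM in sorted and 12861 CPM in WKM barcodes, and hbba2 had 9.86 CPM in sorted and 2331 CPM in WKM barcodes. si:ch211-5k11.8 had 8.97 CPM in sorted and 2220 CPM in WKM barcodes, and hbaa2 had 6.83 CPM in sorted and 1476 CPM in WKM barcodes. The log2 ratios of these 5 lay between -8.00 and -7.76. hbae1.3 had 0.444 CPM (16 UMIs) in sorted and 62.6 CPM in WKM barcodes, a log2 ratio of -7.14 (-7.95 to -6.43). hbbe1.3 had 0.278 CPM (10 UMIs) in sorted and 10.1 CPM in WKM barcodes, a log2 ratio of -5.19 (-6.28 to -4.27), and this interval lay above those of the 5 adult globins.

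**Figure D5:**
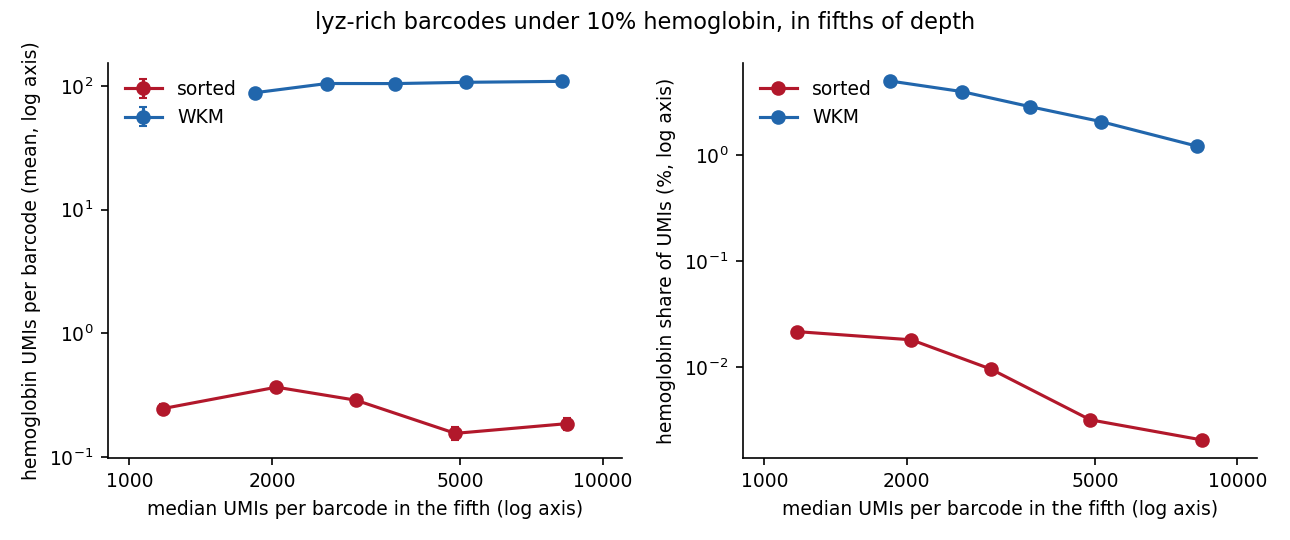
For lyz-rich barcodes under 10% hemoglobin in 5 bins of depth, the mean hemoglobin UMIs per barcode with 95% counting intervals (left) and the pooled hemoglobin share of UMIs (%, right) are plotted against the median UMIs per barcode, all on log axes, with sorted barcodes in red and WKM barcodes in blue. The WKM mean lies between 87.8 and 109 UMIs in all bins while the share is 4.97% in the shallowest and 1.21% in the deepest, and the sorted mean lies between 0.156 and 0.369 UMIs.

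In most sorted neutrophils no hemoglobin UMI was detected at a median depth of 3012 UMIs outside hemoglobin. Of the 8860 lyz-rich sorted barcodes 7298 held 0 hemoglobin UMIs, 1208 held 1, and 351 held 2 to 10. After thinning to 1000 UMIs 8.28% of sorted and 99.99% of WKM lyz-rich barcodes were expected to hold a hemoglobin UMI, and 17.6% and 100% did so unthinned, in the same order. In WKM barcodes under 10% that were neither lyz-rich nor erythroid-marker 99.97% did after thinning, so that the measure was near its upper limit in both sets. hbaa2 was expected in 68.8% of WKM lyz-rich barcodes and in 75.3% of those that were neither. Thinned, hbaa1 was expected in 3.38% of sorted and 99.6% of WKM lyz-rich barcodes, hbaa2 in 0.572% of sorted and 68.8% of WKM ones, and hbae1.3 in 0.0409% of sorted and 4.16% of WKM ones. The thinning left out 687 sorted and 76 WKM barcodes.

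The hemoglobin of lyz-rich WKM barcodes was nearest in composition to that of erythroid-marker barcodes over 50%, though the difference exceeded its counting margin. In lyz-rich WKM barcodes under 10% hbaa1 took 40.7%, hbba1 40.5%, si:ch211-5k11.8 7.09%, hbba2 7.04% and hbaa2 4.47%, with 0.191% embryonic-named and an alpha to beta ratio of 1.101. The difference in composition, the percentage of UMIs that would have to change gene for 2 sets to match, was, to erythroid-marker barcodes, 17.3 percentage points for those under 10%, 15.4 at 10 to 20%, 6.36 at 20 to 50% and 1.38 over 50%. The counting margins of these were 1.48, 0.880, 0.489 and 0.378 points. Between all lyz-rich and all erythroid-marker WKM barcodes it was 2.17 points. The composition of the 4328 barcodes that were neither was likewise nearest to the over 50% band, at 1.05 points.

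The few hemoglobin UMIs of sorted neutrophils had a similar make-up with some differences. Among 2211 UMIs in lyz-rich sorted barcodes under 10%, hbaa1 took 38.7% (36.6 to 40.7%), hbba1 38.6% (36.6 to 40.7%), si:ch211-5k11.8 10.0% (8.82 to 11.4%), hbba2 6.51% (5.52 to 7.62%) and hbaa2 5.47% (4.56 to 6.50%). The share of si:ch211-5k11.8 was above the 7.09% in WKM (7.01 to 7.18%), and that of hbaa2 above the 4.47% in WKM (4.40 to 4.54%). The embryonic-named share was 0.678% (0.380 to 1.12%) in sorted barcodes, against 0.191% (0.176 to 0.206%) in WKM. It rested on 15 UMIs in 15 barcodes, 9 of them hbbe1.3. Without the sorted barcode with most hemoglobin UMIs (130) the share of si:ch211-5k11.8 was 10.5% and the embryonic-named share 0.721%.

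The sorted library held 3 kept barcodes over 10% hemoglobin, and these carried 83.2% of its 18152 hemoglobin UMIs. They had 10949, 2522 and 1635 hemoglobin UMIs (76.7%, 44.7% and 67.2% of their UMIs) and UMIs of 18, 9 and 12 listed erythroid genes. Every other sorted barcode had at most 130. Barcode sequences present in both libraries carried more hemoglobin in the sorted library. In lyz-rich barcodes under 10%, the 28 shared sequences had 411 CPM of hemoglobin (57 UMIs) and the 8831 others 60.1 CPM (2154 UMIs). Of these, 50% and 17.5% held a hemoglobin UMI, in that order. With only 57 UMIs in the shared sequences, a few barcodes may carry this difference. In WKM the 19 shared ones had 19918 CPM and the 3166 others 23006 CPM. Leaving out the shared sequences gave the same ratio of sorted over WKM lyz-rich barcodes, at a log2 value of -7.94.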

How the data were processed

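The authors deposited unnormalized counts of UMIs for every gene in every barcode, obtained with CellRanger (version 3.1.0), using GRCz11 transcripts to which both reporter genes were added. The members, lists and bands were chosen with earlier results of these data known.

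Barcodes were kept with under 10% mitochondrial counts, without Scrublet doublets (expected rate 10%, 2323 sorted and 277 WKM barcodes removed) and with no minimum of features. Lyz-rich barcodes had at least 5 UMIs of lyz and took precedence over erythroid-marker ones. Shares have Clopper-Pearson, levels Poisson and ratios binomial-split intervals, and 3 UMIs correspond to 0.0622 CPM in the sorted and 0.0683 CPM in the WKM library. Thinned shares are hypergeometric expectations. Clusters used barcodes with at least 200 UMIs outside hemoglobin, 2000 variable genes other than hemoglobin, 30 components, 15 neighbours and Leiden resolution 1. Interval and ratio calculations were tested on simulated data. Named genes were the members, other hemoglobin features, the extremes and the 5 most counted of the lists, and the 5 genes most like hemoglobin over clusters. Genes given as leading a cluster, or by their role in describing it, were chosen after their values were seen. Python 3.11.15, scanpy 1.11.5, scipy 1.17.1 and matplotlib 3.10.9 were used. Alternatives changed filters, weights, lyz limits and scaling. Those restricted to erythroid-marker barcodes, taking off the hemoglobin of lyz-rich barcodes, leaving out shared barcode sequences or leaving out the 10 barcodes richest in embryonic-named UMIs were chosen after seeing the data.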

Additional observations from a re-analysis of the deposited data

Results flagged for a closer look

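zgc:163057, which the table of gene names lists as hbae4, is a globin gene on chromosome 12 in RefSeq that the name pattern for hemoglobin does not pick up, so it entered no sum above. It had 1494 UMIs in erythroid-marker WKM barcodes over 50% hemoglobin, with UMIs in 814 of 1443 of them. In CPM of the UMIs outside hemoglobin it had 13.8 (4.49 to 32.2) under 10%, 54.6 (37.8 to 76.3) at 10 to 20%, 326 (299 to 355) at 20 to 50% and 794 (755 to 836) over 50%. The bands are set by hemoglobin against other UMIs, so this order is not independent of them. Set against the hemoglobin UMIs of the same barcodes it came to 0.0209%, 0.0334%, 0.0555% and 0.0280%, and was lower over 50% than at 20 to 50%. In lyz-rich barcodes it had 0.0278 CPM of the UMIs outside hemoglobin (1 UMI) in the sorted library and 22.1 in WKM. Over 50% it exceeded hbae5 (142) and hbae1.1 (104), which the pattern does include, and it was among the leading genes of cluster 8. In cycling erythroid-marker barcodes it had 473 (443 to 504) and in those not cycling 448 (422 to 475).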

How the results depend on the processing

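No paired analysis was made because barcodes were not assigned to fish here. The embryonic-named share with erythroid-marker barcodes only was 0.146% under 10% and 0.177% at 10 to 20%, and with at least 500 features besides 0.139%, 0.176%, 0.349% and 0.276% from the lowest band to the highest. At 20 to 50% and over 50% it was 0.297% and 0.210% with doublets kept, 0.339% and 0.281% with at least 500 features, 0.191% and 0.171% with barcodes weighted equally, and 0.214% and 0.186% without the 10 barcodes richest in embryonic-named UMIs. The hemoglobin share of lyz-rich barcodes was 0.0115% in sorted and 4.24% in WKM with doublets kept (log2 ratio -8.53), 0.0166% and 3.89% at a lyz limit of 1% (log2 ratio -7.87), 0.00513% and 2.55% at 5% (log2 ratio -8.96), and 0.00614% and 2.30% under 10% hemoglobin (log2 ratio -8.55). The WKM share was 3.14% with at least 500 features and 3.19% without shared barcode sequences. The composition difference between lyz-rich and erythroid-marker WKM barcodes was 1.79 points with doublets kept, 3.67 with at least 500 features and 2.60 at a lyz limit of 5%. With at least 100 UMIs per gene, which tests fewer genes, 82 genes were lower and 302 higher in sorted lyz-rich barcodes, and 232 lower and 366 higher over 50% hemoglobin. Apart from that, the cause of these shifts was not tested. The embryonic-named share of sorted neutrophils rests on 15 UMIs.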
